A study of Mus musculus with 2 samples.

Results

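The 44 genes described here drive or mark progression through the cell cycle and DNA replication, and were followed in ureter explants of newborn mice after inhibition of SHH signaling. They were chosen by name and role. Of these, 16 are regulators of the G1 phase and its exit, 12 act in DNA replication and 16 in mitosis. They are 44 of the 29924 gene names on the array, carried by 62 of its 39429 probes.

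Ureters of wildtype NMRI mice were taken at postnatal day 0, placed in culture and kept there for 18 h. The medium of treated explants held cyclopamine at 10 µM, a steroidal alkaloid that inhibits SMO and thereby SHH signaling, and that of controls held DMF as solvent (1 in 1000) per the labels, whereas the study's methods name ethanol as the solvent of cyclopamine. Ureters of a single sex were pooled for RNA, so a pool is whole ureter tissue with epithelium, connective tissue, smooth muscle and other cells, in which fewer dividing cells and less RNA per dividing cell cannot be told apart. Each of the 2 two-colour arrays held a cyclopamine pool and a control pool. Replicate 1 held female pools with the control in green and cyclopamine in red, and replicate 2 held male pools with the dyes swapped, so that sex, dye orientation and replicate number cannot be told apart. The source name of the treated channel reads IWP-2, an inhibitor of WNT secretion, whereas titles, treatment entries and protocol read cyclopamine.

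Cells enter the cycle when D-type cyclins with CDK4 or CDK6, and then E-type cyclins with CDK2, phosphorylate RB proteins and thereby free E2F transcription factors, while CDK inhibitors of the p16 (INK4) and p21 (CIP/KIP) families hold this step back. E2F proteins drive genes for the MCM helicase, the sliding clamp and deoxynucleotide synthesis. Later, B-MYB with the MuvB complex and FOXM1 drive genes for mitotic cyclins, kinases and the chromosome segregation machinery. Hedgehog signals raise D-type cyclins and Mycn in several embryonic tissues, and the newborn ureter is a tissue that still grows.

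Direct readouts of the SHH pathway fell. Gli1, a transcriptional effector and target of SHH signaling, had intensities of 7771 in the control pool and 2182 in the cyclopamine pool on replicate 1 and of 1236 and 289.7 on replicate 2, a mean log2 ratio of cyclopamine over control of -1.96 (limma adjusted p 1.76e-08). Ptch1, the SHH receptor and a target, had a mean log2 ratio of -1.31 (limma adjusted p 0.000248). Limma, a linear model with a variance estimate shared across probes, called 5 of the 6 SHH response genes lower. The sixth had opposite log2 ratios, 0.28 on replicate 1 and -0.52 on replicate 2. Foxl1 and Foxf1, among the 5, were reported by the study as reduced on these same arrays. Their calls are thus no independent check of the inhibition.

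None of the 44 cell cycle genes was called by limma at an adjusted p under 0.05, and none passed the limits of the study, here read as over 100 intensity units in the control and 1.5-fold or more in a shared direction on replicate 1 and on replicate 2. Over all 19346 tested genes, limma called 0.868% lower and 0.439% higher, and of 13645 genes with sufficient control intensity, 0.63% passed the fold limit as lower and 0.213% as higher. All 44 genes were tested, and all were well above background in all 4 channels. The control intensity was over 100 on both arrays for 42 of them, with Ccne2 and Aurkb below it. The lowest adjusted p among the 44 was 0.438 (Ccnd1, limma). At an unadjusted p under 0.05, limma gave 2 lower genes (Ccnd1 and Birc5) and 1 higher gene (Cdk6), against 4.82% lower and 4.24% higher of all tested genes.

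With a 1.2-fold limit on each array, 3 genes were lower, Ccnd1, Cdkn2c and E2f1, and 0 were higher. The same limit was passed by 3.1% of all genes with sufficient control intensity as lower and 3.38% as higher. All 3 genes are regulators of the G1 phase. Of all 44 genes, 17 were lower on both arrays, 5 were higher on both and 22 had opposite signs. Among all tested genes, 29.0% were lower on both arrays and 28.6% higher on both.

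The 2 arrays gave different pictures of the same genes. On replicate 1, 24 of 44 genes had a log2 ratio below 0 (50.2% of all tested genes), and on replicate 2, 32 of 44 (50.1% of all tested genes). A change of at least 1.5-fold in either direction was seen for 6 genes on replicate 1, where 18.6% of all tested genes reached it, and for 0 genes on replicate 2, where 5.13% did. On replicate 1, Birc5, Aurkb, Cdk1 and Ccnd1 were lower and Cdk6 and Mki67 higher by that much. The median difference between the arrays over the 44 genes was 0.23 on the log2 scale.

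**Figure D1:**
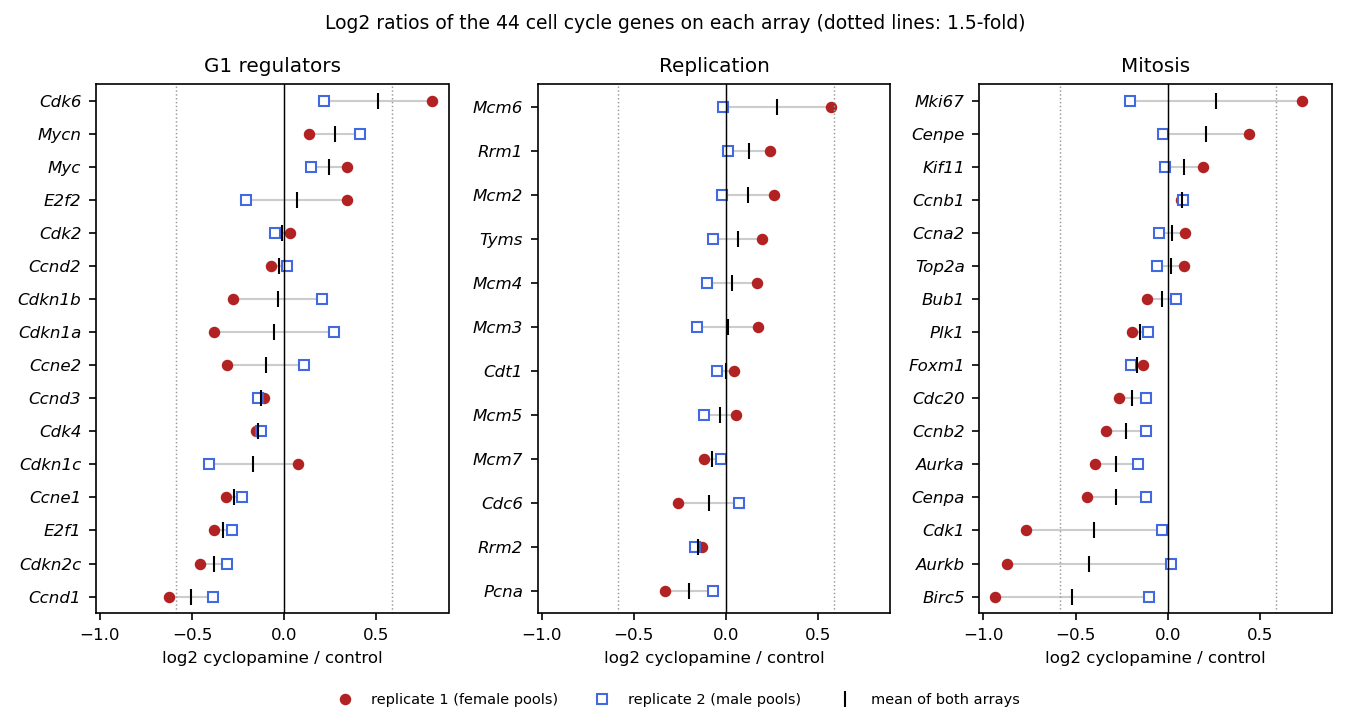
Log2 ratio of cyclopamine over control (x axis) for each of the 44 genes, in panels for the 16 G1 regulators, the 12 replication genes and the 16 mitosis genes, with replicate 1 (female pools, filled circles), replicate 2 (male pools, open squares) and the mean of both (bars). The squares lie between -0.41 and 0.41 with most of them below 0, while the circles reach from -0.93 (Birc5) to 0.80 (Cdk6).

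**Figure D2:**
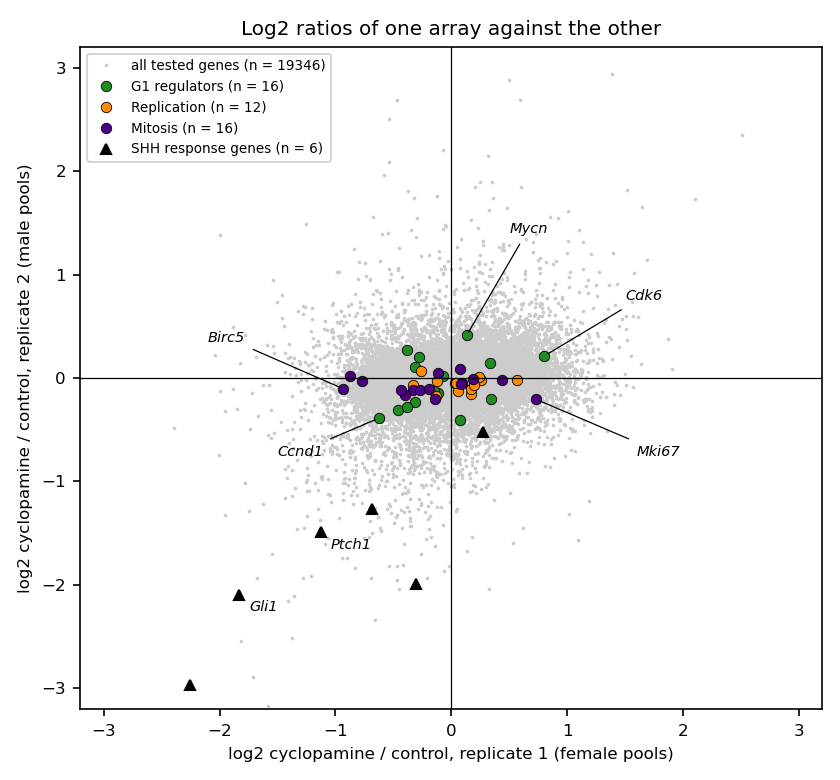
Log2 ratios of replicate 1 (x axis) against replicate 2 (y axis) for all 19346 tested genes (grey, of which 3 lie outside the axes), the 44 cell cycle genes (circles coloured by role) and 6 SHH response genes (triangles). The circles lie within the grey cloud and spread more along the x axis than along the y axis, while Gli1 and Ptch1 lie far to the lower left.

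The G1 regulators held the only 3 of the 44 genes lower by at least 1.2-fold on both arrays. With a trend of the ratios with gene length removed, as given below, Ccnd1 alone of the 3 stayed past that limit. Lower on both arrays were 6 of the 16 (Ccnd1, Cdkn2c, E2f1, Ccne1, Cdk4 and Ccnd3), 3 were higher on both (Cdk6, Mycn and Myc) and 7 were opposite. The median log2 ratio was -0.13 on replicate 1, -0.09 on replicate 2 and -0.08 for the mean of both, against a median of -0.01 for the mean over all tested genes.

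Ccnd1, the D-type cyclin that partners CDK4 and CDK6 (probe at chromosome 7, 152116202 to 152116261, build mm9), read 14146 intensity units in control tissue and 9180 in treated tissue on replicate 1, and 2302 and 1759 on replicate 2. The cyclopamine pool was the dimmer of the pair on both arrays. The mean log2 ratio was -0.51 ± 0.17 (SD, 2 arrays), with a 95% interval from -0.96 to -0.05 and a limma adjusted p of 0.438. The other D-type cyclins differed from this in their values. Ccnd2 had intensities of 33409 and 31765 on replicate 1 and of 6232 and 6302 on replicate 2, a mean log2 ratio of -0.03 ± 0.06 (SD, 2 arrays). Its interval, from -0.48 to 0.42, overlaps that of Ccnd1, and the difference between them was not tested. Ccnd3 had log2 ratios of -0.11 and -0.14.

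Among the E-type cyclins, Ccne1 had log2 ratios of -0.32 and -0.23, and both of its probes were lower on both arrays. Ccne2, measured by a dim probe with control intensities of 66.7 and 16.8, had log2 ratios of -0.31 and 0.11. Of the kinases, Cdk4 had log2 ratios of -0.15 and -0.13, and Cdk2 of 0.03 and -0.05. Cdk6, the other partner of D-type cyclins, went the opposite way (chromosome 5, 3522106 to 3522165, mm9). It read 321.9 in control and 562 in treated tissue on replicate 1, and 160.1 and 185.8 on replicate 2. This gave a mean log2 ratio of 0.51 ± 0.42 (SD, 2 arrays, 95% interval 0.05 to 0.97; limma adjusted p 0.445), most of it from replicate 1.

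E2f1, an activating E2F factor that is itself an E2F target (chromosome 2, 154385798 to 154385857, mm9), had intensities of 1425 in the control and 1092 with cyclopamine on replicate 1 and of 233.2 and 191.6 on replicate 2. The difference was of similar size on replicates 1 and 2, and the mean log2 ratio was -0.33 ± 0.07 (SD, 2 arrays, limma adjusted p 0.677). E2f2, a related activator, had log2 ratios of 0.34 on replicate 1 and -0.21 on replicate 2.

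The CDK inhibitors differed among themselves. Cdkn2c, which encodes the INK4 inhibitor p18 (chromosome 4, 109333508 to 109333567, mm9), had intensities of 3647 and 2655 on replicate 1 and of 742.1 and 599.4 on replicate 2, a mean log2 ratio of -0.38 ± 0.11 (SD, 2 arrays, limma adjusted p 0.632). The inhibitor gene was thus lower on both arrays, as was Ccnd1. Cdkn1a, which encodes p21, had intensities of 3651 and 2803 on replicate 1 but of 482.1 and 580.4 on replicate 2, that is log2 ratios of -0.38 and 0.27. Cdkn1b, which encodes p27, showed the same split with intensities of 11208 and 9256 on replicate 1 and of 1875 and 2161 on replicate 2. Cdkn1c, which encodes p57, had intensities of 11351 and 11935 on replicate 1 and of 2171 and 1638 on replicate 2. The control was the brighter channel for Cdkn1c on replicate 2 alone.

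The MYC genes, which promote G1 progression and cell growth, were higher on both arrays. Mycn had intensities of 1954 in the control and 2143 with cyclopamine on replicate 1 and of 387.9 and 516.4 on replicate 2, a mean log2 ratio of 0.27 ± 0.20 (SD, 2 arrays, limma adjusted p 0.742). Myc had intensities of 10955 and 13847 on replicate 1 and of 2089 and 2314 on replicate 2, a mean log2 ratio of 0.24 ± 0.13 (SD, 2 arrays, limma adjusted p 0.774). Both intervals include 0.

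Lower on both arrays were 3 of the 12 replication genes (Pcna, Rrm2 and Mcm7), 1 was higher on both (Rrm1) and 8 were opposite. The share lower on both was 25%, against 29.0% of all tested genes. The median log2 ratio was 0.11 on replicate 1, -0.06 on replicate 2 and 0.00 for the mean. On replicate 2, the log2 ratios ran from -0.17 to 0.07, with 10 of 12 below 0, whereas on replicate 1 they ran from -0.33 to 0.57, with 4 of 12 below 0.

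The MCM proteins 2 to 7 form the replicative helicase as 1 hexamer. Mcm2 had intensities of 5960 in the control and 7139 with cyclopamine on replicate 1 and of 1551 and 1528 on replicate 2. Mcm7 had 19588 and 18035 on replicate 1 and 3549 and 3481 on replicate 2. The other subunits had log2 ratios on replicate 1 of 0.17 (Mcm3), 0.17 (Mcm4), 0.05 (Mcm5) and 0.57 (Mcm6), and on replicate 2 of -0.16, -0.10, -0.12 and -0.02. All 6 subunits were thus below 0 on replicate 2, while 5 of the 6 were above 0 on replicate 1. The licensing factors that load the helicase showed small values, with log2 ratios of -0.26 and 0.07 for Cdc6 and of 0.04 and -0.05 for Cdt1.

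Pcna, the sliding clamp of the replicative polymerases (chromosome 2, 132075022 to 132075054, mm9), had intensities of 26753 and 21305 on replicate 1 and of 4875 and 4645 on replicate 2, a mean log2 ratio of -0.20 ± 0.18 (SD, 2 arrays, limma adjusted p 0.823). Rrm2, the small subunit of ribonucleotide reductase that is made in S phase, had 18481 and 16905 on replicate 1 and 4022 and 3574 on replicate 2, a mean log2 ratio of -0.15 ± 0.03 (SD, 2 arrays). The large subunit, Rrm1, had 10409 and 12305 on replicate 1 and 2519 and 2534 on replicate 2, a mean log2 ratio of 0.13 ± 0.16 (SD, 2 arrays). The intervals of the subunits overlap. Tyms, which makes dTMP, had log2 ratios of 0.20 and -0.07.

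The promoters of Mcm5 and Mcm6 are shown because both carry E2F motif letters while their ratios on replicate 1 differed (0.05 and 0.57). Each line gives the 250 bases before the gene start, 5′ to 3′ on the strand of the gene, from RefSeq (build GRCm38.p6). Capitals mark matches on either strand to an E2F motif (TTTGGCGC, TTTCCCGC, TTTCGCGC or TTTGCCGC), to the CHR element TTTGAA or to CCAAT, the letters bound by NF-Y. Overlapping matches run together. The Mcm5 window is chr8:75109259-75109508, plus strand, and that of Mcm6 is chr1:128359706-128359955, minus strand.
Mcm5: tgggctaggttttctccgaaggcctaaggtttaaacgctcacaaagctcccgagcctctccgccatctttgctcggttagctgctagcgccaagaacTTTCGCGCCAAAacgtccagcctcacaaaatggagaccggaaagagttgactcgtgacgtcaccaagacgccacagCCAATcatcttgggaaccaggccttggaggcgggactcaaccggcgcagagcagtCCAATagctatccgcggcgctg
Mcm6: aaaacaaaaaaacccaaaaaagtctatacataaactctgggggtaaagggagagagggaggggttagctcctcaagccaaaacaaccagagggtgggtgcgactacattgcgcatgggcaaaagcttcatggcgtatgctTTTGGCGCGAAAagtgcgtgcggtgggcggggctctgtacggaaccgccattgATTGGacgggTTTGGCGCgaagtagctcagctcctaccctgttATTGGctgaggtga

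Mcm5 holds a pair of overlapping E2F matches 153 and 149 bases before its start, and Mcm6 a pair at 110 and 106 bases and a single match at 47 bases. Of the 11 replication genes with a promoter in the table, 4 hold an E2F match (36.4%), against 2.16% of 27025 genes. The 4 genes with a match, Cdc6, Mcm5, Mcm6 and Mcm7, had a median mean log2 ratio of -0.05, and the other 7 one of 0.01. CCAAT was found in 8 of the 11 (72.7%), against 37.5% of all genes. The TTTGAA letters were found in 1 of the 11 (9.09%), against 18.3% of all genes. These matches describe the sequence and do not show binding.

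Among the mitosis genes, 8 of 16 were lower on both arrays (Birc5, Cdk1, Cenpa, Aurka, Ccnb2, Cdc20, Foxm1 and Plk1), 1 was higher on both (Ccnb1) and 7 were opposite. The median log2 ratio was -0.16 on replicate 1, -0.08 on replicate 2 and -0.16 for the mean. Ratios on replicate 2 were small throughout, from -0.20 to 0.09, with 13 of 16 below 0.

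Birc5, which encodes survivin, a subunit of the chromosomal passenger complex (chromosome 11, 117716978 to 117717037, mm9), read 20887 in control and 10932 in treated tissue on replicate 1, and 2857 and 2660 on replicate 2. Replicate 1 thus carried nearly all of the mean log2 ratio of -0.52 ± 0.59 (SD, 2 arrays, 95% interval -0.99 to -0.05; limma adjusted p 0.442). Aurkb, the kinase of the same complex, had intensities of 133.8 and 73.1 on replicate 1 and of 23.4 and 23.8 on replicate 2, nearly equal on replicate 2. The kinase gene Cdk1, the catalytic partner of the mitotic cyclins (chromosome 10, 68801072 to 68801131, mm9), had 6050 and 3549 on replicate 1 and 888.3 and 870.2 on replicate 2, a mean log2 ratio of -0.40 ± 0.52 (SD, 2 arrays, limma adjusted p 0.622). For Birc5, Aurkb and Cdk1, the SD between arrays was larger than the mean.

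Aurka, a spindle pole kinase, had intensities of 4251 and 3232 on replicate 1 and of 790.4 and 707.4 on replicate 2, a mean log2 ratio of -0.28 ± 0.17 (SD, 2 arrays). Cenpa, the histone variant of the centromere, had 8913 and 6585 on replicate 1 and 1195 and 1100 on replicate 2, a mean log2 ratio of -0.28 ± 0.22 (SD, 2 arrays). Foxm1, the transcription factor of mitotic genes, had 2160 and 1966 on replicate 1 and 437.6 and 380.6 on replicate 2, a mean log2 ratio of -0.17 ± 0.05 (SD, 2 arrays). All of these were lower on both arrays, and limma gave them adjusted p values of 0.739 or more.

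The mitotic cyclins had small and mixed values, with log2 ratios of -0.33 and -0.12 for Ccnb2, of 0.07 and 0.09 for Ccnb1 and of 0.09 and -0.05 for Ccna2. Cdc20, an activator of the anaphase-promoting complex, had log2 ratios of -0.27 and -0.12, the kinase gene Plk1 of -0.19 and -0.11, and the spindle checkpoint kinase gene Bub1 of -0.11 and 0.05. The motor genes Kif11 and Cenpe had 0.19 and 0.44 on replicate 1 and -0.01 and -0.02 on replicate 2.

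Mki67, which encodes the proliferation marker Ki-67 (chromosome 7, 142881591 to 142881650, mm9), read 11482 in control and 19022 in treated tissue on replicate 1, and 4970 and 4316 on replicate 2. It was the mitosis gene with the highest ratio on replicate 1 (0.73) and the lowest on replicate 2 (-0.20). Its mean log2 ratio was 0.26 ± 0.66 (SD, 2 arrays, limma adjusted p 0.762). Top2a, a topoisomerase that is also used as a proliferation marker, had 4572 and 4860 on replicate 1 and 877.2 and 843.5 on replicate 2, a mean log2 ratio of 0.02 ± 0.10 (SD, 2 arrays).

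Promoters of Ccnb2, Cdc20 and Cdk1 are printed as mitosis genes that were lower on both arrays and whose windows hold both TTTGAA and CCAAT. The windows are chr9:70421555-70421804, minus strand, chr4:118437344-118437593, minus strand, and chr10:69352913-69353162, minus strand, with build, bases and capitals as given above.
Ccnb2: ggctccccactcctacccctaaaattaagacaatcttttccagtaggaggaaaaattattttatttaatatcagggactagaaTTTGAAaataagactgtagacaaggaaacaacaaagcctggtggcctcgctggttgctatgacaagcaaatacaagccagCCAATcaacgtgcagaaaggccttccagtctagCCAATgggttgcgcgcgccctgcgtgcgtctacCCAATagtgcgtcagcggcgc
Cdc20: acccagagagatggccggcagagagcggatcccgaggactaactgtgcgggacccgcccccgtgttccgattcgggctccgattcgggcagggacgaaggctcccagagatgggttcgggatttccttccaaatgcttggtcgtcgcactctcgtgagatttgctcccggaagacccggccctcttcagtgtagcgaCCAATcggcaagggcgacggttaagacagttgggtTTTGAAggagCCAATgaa
Cdk1: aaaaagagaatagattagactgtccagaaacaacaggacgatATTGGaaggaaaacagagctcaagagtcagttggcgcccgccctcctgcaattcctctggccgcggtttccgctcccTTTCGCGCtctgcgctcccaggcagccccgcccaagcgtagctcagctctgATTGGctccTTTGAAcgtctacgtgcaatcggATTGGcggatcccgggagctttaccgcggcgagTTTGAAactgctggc

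CCAAT was found in 12 of the 13 mitosis genes with a promoter in the table (92.3%), with Birc5 the exception, and TTTGAA in 6 of 13 (46.2%), against 37.5% and 18.3% of all genes. The 6 genes with TTTGAA are Ccnb2, Cdc20, Cdk1, Kif11, Mki67 and Top2a. Their median mean log2 ratio was -0.09, and that of the 7 others -0.15. An E2F match was found in 1 of the 13 (7.69%), Cdk1. Among the G1 regulators, 2 of 11 (18.2%) held an E2F match, Cdk2 and Mycn. The motif search thus covered 35 of the 44 genes. E2f1 is counted as without an E2F match from a single window (chr2:154569427-154569676, minus strand). Bases of that window can be read as coding sequence, so it may not be the promoter, which was not tested. Ccnd1, Ccnd2, Ccne2, Cdkn1c, Myc, Mcm4, Ccna2, Aurkb and Foxm1 had no entry in the table.

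Separate probes of a gene gave a check on these values. Of the 12 genes with over 1 tested probe, 8 had probes whose mean log2 ratios shared a sign. The 3 probes of Birc5 gave mean log2 ratios from -0.58 to -0.46, with log2 ratios from -1.04 to -0.79 on replicate 1 and from -0.13 to -0.10 on replicate 2. The split of Mki67 between the arrays was seen with both of its probes, at 0.73 and 0.82 on replicate 1 and at -0.20 and -0.09 on replicate 2. All 3 probes of Cdkn1a were below 0 on replicate 1 and above 0 on replicate 2, where the 2 dim probes had log2 ratios of 0.18 and 0.02. The probes of Cdk1 disagreed, since a dim probe with intensities from 21.3 to 91.0 gave a mean log2 ratio of 0.26, against -0.40 and -0.50 for the other 2. The probes of Cdkn1b disagreed likewise, with 0.72 for a dim probe and -0.04 for the bright probe. Of the 3 probes of Ccnb1, the brightest was above 0 on both arrays and the other 2 were below 0 on replicate 1. Those of Foxm1 had mean log2 ratios of -0.17 and 0.10, and those of Mcm3 of 0.01 and -0.08.

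**Figure D3:**
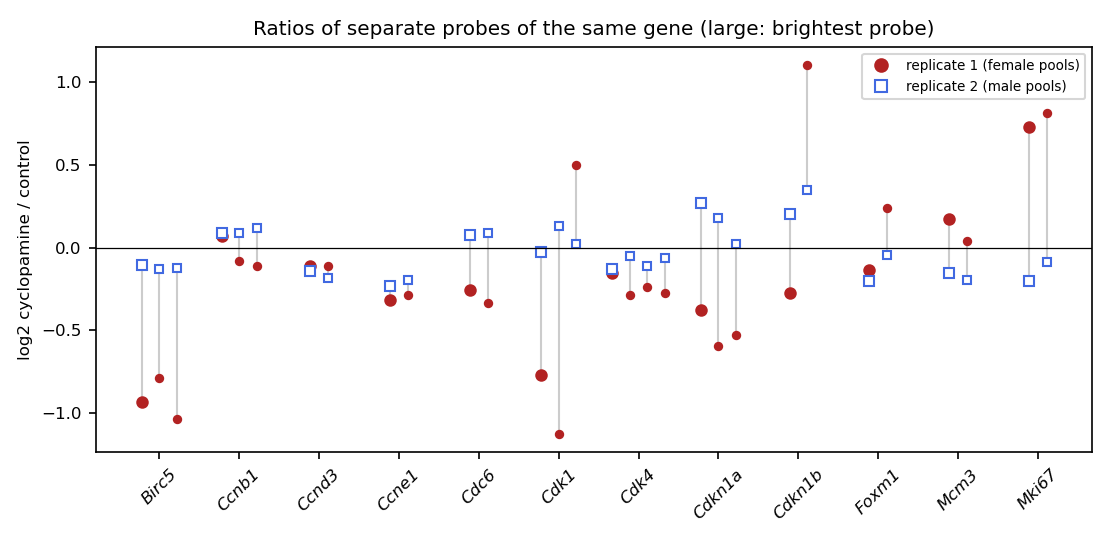
Log2 ratio of cyclopamine over control (y axis) of each tested probe of the 12 genes with over 1 tested probe (x axis), on replicate 1 (filled circles) and replicate 2 (open squares), with large symbols for the brightest probe of a gene. Probes of Birc5, Mki67 and Cdkn1a lie close to each other on each array, while those of Cdk1 and Cdkn1b spread over more than 0.76 in their mean.

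Spots of a probe scattered less than the arrays differed. Over the 44 genes, the median SD of the log2 ratio between spots of a probe was 0.0278 on replicate 1 and 0.0269 on replicate 2. The ratio differed from 0 by over 2 such SDs for 41 genes on replicate 1 and for 31 on replicate 2. Spots of 1 array share their RNA pools and are not replicates of the treatment. Between arrays, the 95% interval of limma was the mean ± 0.45 for a median gene, that is 1.37-fold in either direction. For the brightest probe of each of the 44 genes, the interval excluded a 2-fold change in either direction, given the variance that limma shares across probes. The intervals of a dimmer probe of Birc5 and of the dim probe of Cdkn1b included a 2-fold change. With that shared variance, the interval was nearly as wide for Ccnb1, whose arrays differed little, as for Mki67, whose arrays differed much.

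Ratios of replicate 1 varied with the genomic length of the gene. Across the 44 genes, Pearson's r of the log2 ratio with log10 gene length was 0.48 on replicate 1 (Spearman's rho 0.43) and 0.14 on replicate 2 (rho 0.12). Across the 16009 tested genes with a known length, r was 0.41 on replicate 1 and -0.01 on replicate 2. The genes of an array share its pools and dyes and are no independent replicates, so these are descriptions. The 22 shorter members, from 2.72 to 10.5 kb, had a median log2 ratio of -0.23 on replicate 1 and -0.09 on replicate 2. The 22 longer members, from 12.9 to 190.0 kb, had 0.13 and -0.04. Birc5 (6.51 kb) and Aurkb (6.04 kb) lie among the shorter genes and Cdk6 (190.0 kb) is the longest.

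With this trend removed on each array, the ratios on replicate 1 became -0.70 for Birc5, -0.64 for Aurkb, -0.71 for Cdk1, -0.45 for Ccnd1, 0.53 for Cdk6 and 0.69 for Mki67, each nearer to 0 than before. The median of the mean log2 ratios became 0.02 for the G1 regulators, 0.04 for the replication genes and -0.08 for the mitosis genes. Lower on both arrays were then 6, 1 and 7 genes of the 3 groups, and higher on both were 3, 0 and 1. On replicate 1, Cdkn2c and E2f1 each had a log2 ratio of -0.22 and no longer reached 1.2-fold. Ccnd1 stayed lower by over 1.2-fold on both arrays (-0.45 and -0.39). Mycn was then higher by over 1.2-fold on both (0.38 and 0.43). The part of the length trend in these results was not tested beyond this removal.

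**Figure D4:**
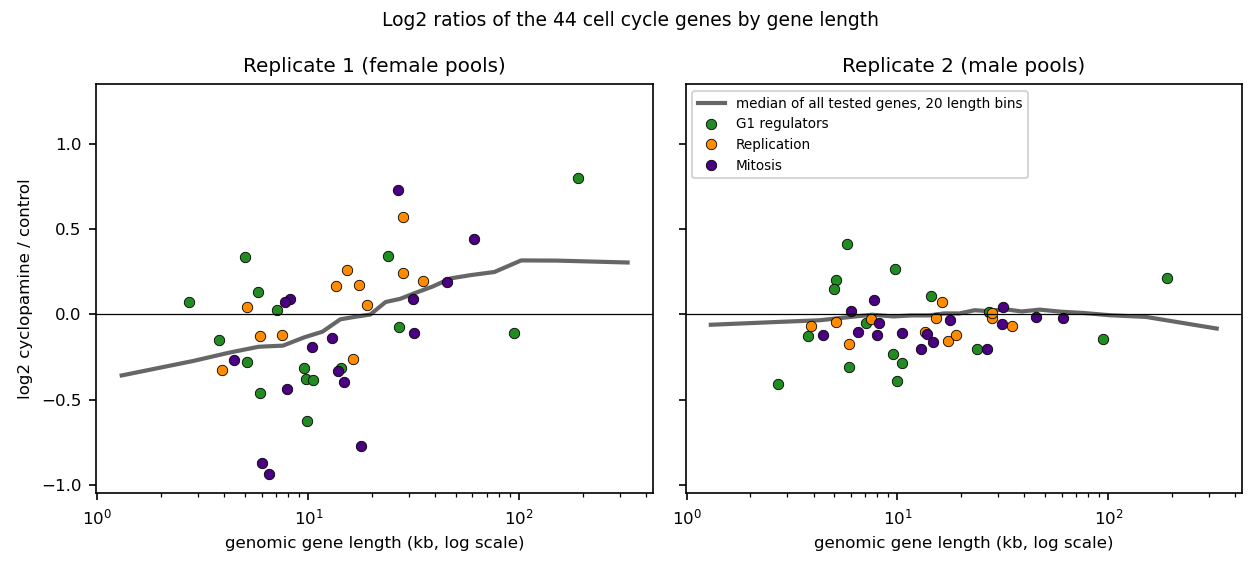
Log2 ratio of cyclopamine over control (y axis) against genomic gene length (x axis, kb, log scale) for the 44 genes on replicate 1 (left) and replicate 2 (right), with the median of all tested genes in 20 bins of length as a line. On the left, the line and the points rise with gene length (r = 0.48 for the 44 genes), and on the right both are nearly flat (r = 0.14).

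Further genes of the same pathways, listed by role, were read beside the 44 genes. Limma called none of them, and none passed both limits of the study. Cdkn2a was lower by over 1.5-fold on both arrays but had a control intensity under 100 on replicate 2. At an unadjusted p under 0.05, the calls were 3 lower and 1 higher of 30 further G1 and E2F/RB regulators, 2 lower and 0 higher of 50 further replication genes, and 3 lower and 0 higher of 71 further mitosis genes. The shares over all tested genes were 4.82% lower and 4.24% higher.

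The further G1 and E2F/RB regulators had 11 of 30 genes lower (36.7%) and 15 higher (50%) on both arrays. The shares over all tested genes were 29.0% and 28.6%. The median mean log2 ratio of these regulators was 0.04. Cdkn2a, which encodes the INK4 inhibitor p16 and p19ARF, had the largest mean log2 ratio by size, read by a dim probe at 280.4 in control and 169.7 in treated tissue on replicate 1 and 50.5 and 30.1 on replicate 2. Its mean log2 ratio was -0.74 ± 0.02 (SD, 2 arrays, limma adjusted p 0.109), nearly the same on both arrays. The next were Cdkn3, a phosphatase that acts on CDKs, with -0.58, and Cdkn2d, which encodes the INK4 inhibitor p19, with -0.56. Cdkn2b, which encodes the INK4 inhibitor p15 and is named here after its values were seen, read 7017 and 4485 on replicate 1 and 1022 and 917.7 on replicate 2 (mean log2 ratio -0.40). With Cdkn2c among the 44 genes, all of the INK4 genes Cdkn2a, Cdkn2b, Cdkn2c and Cdkn2d were thus lower on both arrays, a grouping made after the values were known and with no call by limma. Cdkn2b (4.74 kb), Cdkn2c (5.88 kb) and Cdkn2d (2.96 kb) are short genes, the class with lower ratios on replicate 1, while Cdkn2a spans 20.1 kb. With the length trend removed, Cdkn2c had log2 ratios of -0.22 and -0.29. The part of gene length in this grouping was not tested.

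Of the 50 further replication genes, 24 were lower (48%) and 9 higher (18%) on both arrays, against 29.0% and 28.6% of all tested genes. The list (median -0.14) was led by the GINS subunit gene Gins1 (-0.54), the dUTPase gene Dut (-0.45) and Gins2 (-0.43). Of the 71 further mitosis genes, 29 were lower (40.8%) and 8 higher (11.3%) on both. That list (median -0.06) was led by the kinetochore genes Ska1 (-0.54) and Spc24 (-0.53) and by Cks2 (-0.48), which encodes a subunit that binds CDKs. For these 6 genes, replicate 1 gave log2 ratios from -0.95 to -0.73 and replicate 2 from -0.15 to -0.02. As for Birc5, most of each mean came from replicate 1.

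Replication-dependent histone genes, which are expressed in S phase, had 10 of 14 tested genes lower (71.4%) and 0 higher on both arrays. Of all tested genes, 29.0% were lower and 28.6% higher on both. The medians of the histone genes were -0.47 on replicate 1 and -0.07 on replicate 2. Hist1h4i had the largest mean log2 ratio (-0.53; limma adjusted p 0.407), followed by Hist1h2ae (-0.49) and Hist1h4k (-0.43). Near-identical copies of these genes could share signal, so single histone genes are uncertain. They are also short genes without a long poly(A) tail, and the labelling started from poly(A).

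Targets of p53, the factor that induces Cdkn1a after DNA damage, had 2 of 20 genes lower (10%) and 11 higher (55%) on both arrays. The shares over all tested genes were 29.0% and 28.6%. The median mean log2 ratio of the 20 targets was 0.15. Trp53inp1 had the largest value, with intensities of 6701 and 10605 on replicate 1 and of 1703 and 2137 on replicate 2, a mean log2 ratio of 0.50 (limma adjusted p 0.463). Eda2r had 0.46 and Rrm2b, a p53-inducible subunit of ribonucleotide reductase, 0.43. Limma called 0 of the 20 (unadjusted p under 0.05: 0 lower and 1 higher).

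**Figure D5:**
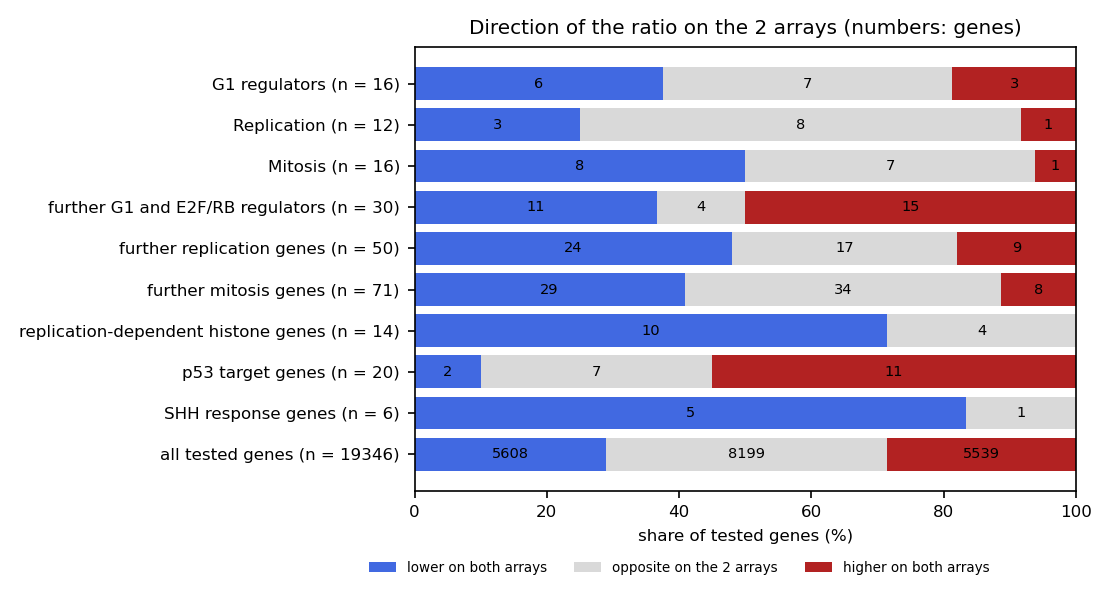
Share of tested genes (x axis, %) that were lower on both arrays (blue), opposite (grey) or higher on both (red) for the 3 groups of cell cycle genes, 5 further lists, the 6 SHH response genes and all 19346 tested genes, with the number of genes in each part. Lower genes outnumber higher genes on both arrays in the G1 regulators (6 against 3), the replication genes (3 against 1) and the mitosis genes (8 against 1). The same order holds in the further replication (24 against 9), further mitosis (29 against 8), histone (10 against 0) and SHH response genes (5 against 0). It is the other way round in the p53 targets (2 against 11) and the further G1 and E2F/RB regulators (11 against 15). Of all tested genes, 29.0% are lower and 28.6% higher on both arrays. The shares are 37.5% and 18.8% of the G1 regulators, 25% and 8.33% of the replication genes and 50% and 6.25% of the mitosis genes. The replication genes thus hold a smaller share of lower genes than all tested genes do.

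Cell type markers differed between the pools as well. Their counts stand beside 29.0% lower and 28.6% higher on both arrays among all tested genes. The 7 urothelial markers summed to an intensity of 312318 in the control and 343739 with cyclopamine on replicate 1 and to 72851 and 78036 on replicate 2, and 5 of them were higher on both arrays. The 5 smooth muscle markers summed to 299319 and 291239 on replicate 1 and to 83777 and 52905 on replicate 2, and 3 of 5 were lower on both arrays. The 5 lamina propria and fibroblast markers summed to 157023 and 260260 on replicate 1 and to 82106 and 61860 on replicate 2, with no shared direction within the list. Aldh1a2 and Thy1 were lower on both arrays by at least 1.5-fold, Pdgfra was higher on both (log2 ratios of 1.27 and 0.01), and Col1a1 and Col1a2 were higher on replicate 1 (0.73 and 0.97) and lower on replicate 2 (-0.48 and -0.44). The median mean log2 ratio of the 5 was 0.12.

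The 5 endothelial markers were all above 0 on replicate 1 (median 0.65), and 4 of 5 were below 0 on replicate 2 (median -0.10), and the 5 tested leukocyte markers had medians of 0.13 and -0.08. These shifts between the arrays run the same way as that of Mki67 and opposite to that of Cdkn1a. The 3 tested markers of red blood cells were lower on both arrays, 2 of 5 glial and neuronal markers were lower and 2 higher on both, and none of the 5 kidney markers was well above background in the same channel on both arrays. All 7 urothelial and all 5 smooth muscle markers, which define the labelled tissue, were. The part of cell type makeup in the values of the cell cycle genes was not tested.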

How the data were processed

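RNA of ureter pools was measured on 2 Agilent arrays with a pair of dyes. The authors' deposited scanner files give spot intensity per channel, an output of Agilent Feature Extraction (the submitters' processing notes give version 10.7.3.1, the scanner files 12.2.0.7). This processed intensity is, per the file headers, background-subtracted and dye-balanced within the array. The deposited log10 ratio, red over green, and the deposited flags (background, outlier, saturation) are software output of the authors, and the authors' series table holds a score, a fold change with a sign, cyclopamine against control, given to 1 decimal. Turned to log2, its columns have medians of 0 and correlate with the scanner ratios at 0.98 (replicate 1) and 0.92 (replicate 2).

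Control spots and outlier spots (2.89% and 3.15%) were left out, log2 ratios were turned to cyclopamine over control and averaged over spots of a probe, and the brightest probe of a gene was read. Well above background were 65% to 70% of spots, and the control 75th percentile was 3338 on replicate 1 and 628 on replicate 2, so intensities are not comparable between arrays. Tested were probes of which a share of 0.5 or more of the spots lay well above background on both arrays, in the control or the cyclopamine channel. For 25975 probes, limma 3.58.1 in R 4.3.3 was used (lmFit and eBayes without intercept, with +1 and -1 for dye orientation), and p-values were adjusted by Benjamini-Hochberg with a limit of 0.05. With 1 residual degree of freedom per probe, the variance rests on the prior (51.9 degrees of freedom), and with 2 arrays precision is limited by their number. The fit was tested on simulated data, with noise drawn from the prior fitted on these arrays. No length trend or shift between arrays was simulated. It called 13 of 50 simulated 1.5-fold changes (26%), 43 of 50 2-fold changes (86%) and 17 unchanged probes. A gene changed by 1.5-fold could thus often go uncalled. Positions of probes come from the array annotation (mm9), without exon or UTR. Gene lengths and promoters are from RefSeq (GRCm38.p6).

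Members and lists were chosen with earlier results of these data known. Given in full were, per role group, the 4 genes of largest absolute mean log2 ratio whose sign was shared by both arrays, and the fixed genes Ccnd1, Ccnd2, Mycn, Myc, Cdkn1a, Cdkn1b, Cdkn1c, Pcna, Mcm2, Mki67, Top2a and Foxm1, and of each further list the 3 largest. Alternatives were normexp with loess, series table values, filters on dim probes, outlier spots, the mean over probes, a trended prior, the 4 channels as samples, removal of the length trend, other limits and each array alone.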

Additional observations from a re-analysis of the deposited data

Results flagged for a closer look

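In 5 of the 22 genes with opposite ratios on the 2 arrays, the ratio of the female pools and that of the male pools each differed from 0 by at least 1.1-fold. Opposite ratios were common on these arrays, with 8199 of all 19346 tested genes. How many of those pass the 1.1-fold rule was not counted, so the split is not shown to be particular to these genes. The difference in log2 ratio, replicate 1 minus replicate 2, was 0.93 for Mki67, -0.65 for Cdkn1a, 0.55 for E2f2, -0.48 for Cdkn1b and 0.33 for Mcm3. None of these differences was tested, because each sex has 1 array. Sex, dye orientation and pool cannot be told apart. The other probe of Mki67 had opposite signs too, with -0.09 on replicate 2, as had the 2 dim further probes of Cdkn1a, with 0.18 and 0.02 on replicate 2. The dim second probe of Cdkn1b was above 0 on both arrays.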

How the results depend on the processing

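Limma called none of the 44 genes under any of the 10 alternatives with a test, and the lowest adjusted p was 0.336. In a fit that took each of the 4 channels as a sample (no replicate block), 0 genes were lower and 0 higher at an unadjusted p under 0.05. Of the 22 genes given in full, 16 kept the sign of their mean log2 ratio under all 10. The 6 exceptions were Ccnd2, Cdkn1a, Cdkn1b, Cdkn1c, Mcm7 and Top2a. The changed filters on dim probes and the trended prior leave each mean as it was, so they could not change a sign. A kept sign of the mean does not stand for agreement of the arrays. Mki67 and Mcm2 kept it with opposite ratios on the 2 arrays. With series table values, 3 genes were higher on both arrays. With the mean over all probes, the median was -0.119 for the G1 regulators and -0.0924 for the mitosis genes, and with the length trend removed it was 0.0192 and -0.0756. With a 1.2-fold limit, 3 genes were lower. With each array alone, which allows no test, 24 to 32 genes were below 0 and 12 to 20 above, 0 to 4 passed the fold limit as lower and 0 to 2 as higher, and the medians ran from -0.131 to -0.0884 for the G1 regulators and from -0.163 to -0.0797 for the mitosis genes. The cause of these shifts was not tested. Dim signal limits Ccne2 and Aurkb.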
